A study of Homo sapiens with 4 samples.

Results

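The genes described here encode 10 subunits of the SWI/SNF (BAF) chromatin remodelling complexes: SMARCB1, SMARCA2, SMARCA4, SMARCC1, SMARCC2, SMARCD1, SMARCD2, SMARCE1, ARID1A and ARID2. They were found by Ensembl ID among the 60617 gene IDs of an expression table from human bladder cancer cells, and all 10 were present and passed the filter on low values. The set was chosen on the treatment difference of SMARCB1, which was higher with protodioscin in both lines, so that difference is described without a test. T24 and 5637 are long-established lines of human bladder carcinoma cells, grown in RPMI medium with fetal bovine serum. Each line gave 1 library of untreated cells and 1 of cells exposed for 6 h to protodioscin, a steroidal saponin of plants. The dose was 60 µM in T24 and 70 µM in 5637 in the sample titles, while the protocol text has these doses in millimolar. No vehicle is named for the untreated cells. With 1 library per group, no value below has a replicate within its group, and any difference between treated and untreated cells of a line compares 2 libraries.

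SWI/SNF complexes use ATP to slide or evict nucleosomes, which opens DNA at enhancers and promoters to transcription factors. Each complex holds 1 of the alternative ATPases SMARCA4 and SMARCA2, and the core around it is built of SMARCC and SMARCD proteins, joined in the BAF and PBAF forms by SMARCE1 and SMARCB1. ARID1A marks the canonical BAF form and ARID2 the PBAF form, and the non-canonical form lacks SMARCB1, SMARCE1 and ARID proteins. SMARCB1 contacts the face of the nucleosome and is the gene lost in rhabdoid tumours, and ARID1A is often mutated in bladder carcinoma.

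The sequences upstream of SMARCB1 and SMARCA4 are shown because SMARCB1 had the treatment difference that the set was chosen for and SMARCA4 the largest difference between the lines. They are the 250 bases before the RefSeq start on GRCh38.p14 (for SMARCA4 the more upstream of 2 listed starts), on the + strand, at chr22:23786716-23786965 for SMARCB1 and chr19:10960780-10961029 for SMARCA4. Capitals mark the matches to the motifs searched on both strands.
SMARCB1: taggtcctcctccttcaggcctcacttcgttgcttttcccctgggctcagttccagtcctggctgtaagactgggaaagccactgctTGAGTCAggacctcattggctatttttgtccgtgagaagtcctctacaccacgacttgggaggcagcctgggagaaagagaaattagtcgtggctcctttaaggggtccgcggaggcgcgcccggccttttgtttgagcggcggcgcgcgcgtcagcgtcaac
SMARCA4: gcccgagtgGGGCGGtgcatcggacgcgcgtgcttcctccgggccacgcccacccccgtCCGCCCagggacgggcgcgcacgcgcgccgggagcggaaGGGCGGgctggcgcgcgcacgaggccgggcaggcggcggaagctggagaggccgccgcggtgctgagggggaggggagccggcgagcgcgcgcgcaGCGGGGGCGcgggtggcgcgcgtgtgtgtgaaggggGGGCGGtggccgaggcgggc
The SMARCB1 sequence held 1 match to the AP-1 motif TGANTCA, the letters TGAGTCA at positions -163 to -157 from the start, and 6.57% of the 35116 RefSeq promoters of this length held such a match. The SMARCA4 sequence held the EGR1 motif GCGGGGGCG at -56 to -48, which was in 4.72% of promoters, and 4 copies of the SP1 GC box GGGCGG, a motif found in 42.6%. Neither held the CRE motif TGACGTCA (1.65% of promoters), the ATF4 composite site TGATGNAA (3.14%), the E-box CACGTG (6.34%) or the ETS motif CCGGAAG (8.52%). The GC content was 58.0% upstream of SMARCB1, equal to the median of all promoters, and 82.4% upstream of SMARCA4. A match is a string of letters, and no binding was measured. Sequences were matched for 7 of the 10 genes, all but SMARCC1, SMARCC2 and ARID2.

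The libraries had 11941 to 12405 genes at 1 FPKM (fragments per kilobase of transcript, normalised for sequencing depth) or more, and their relative depth ranged from 1 to 1.43. The epithelial markers EPCAM, at 2.09 and 2.35 FPKM, and CDH1, at 0.016 and 0 FPKM, were low in T24 and higher in 5637, where EPCAM was at 108 and 106 FPKM and CDH1 at 69.6 and 72.3 FPKM. The keratin KRT8 was at 505 to 692 FPKM and GATA3, a urothelial transcription factor, at 14.5 to 17.6 FPKM across all 4 libraries. The uroplakin UPK2 was at 0.211 FPKM or less. UPK1B, another uroplakin, was listed at 0 for T24, against 3.79 (untreated) and 3.23 (treated) FPKM for 5637. The basal urothelial marker KRT5 was likewise listed at 0 for T24, against 331 and 284 FPKM for 5637. TP63, also basal, reached 27.9 and 19.2 FPKM in 5637 but 0.0232 FPKM at most in T24. Of the mesenchymal markers, VIM was higher in 5637 (304 and 267 FPKM) than in T24 (67.95 and 61.4 FPKM). CDH2 and ZEB1 were lower in 5637. Of 9 leukocyte, endothelial and erythroid markers, CD68 alone reached 1 FPKM in every library, CDH5 did so in untreated T24, and the others were at 0.381 FPKM or less. Mitochondrially encoded transcripts made up 4.50% of the FPKM sum of T24 without and 3.74% with protodioscin, and 9.84% of that of 5637 without and 11.9% with it, so their share moved in opposite directions in the lines.

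All 10 subunit genes were transcribed in both lines, and ARID2 at 5.02 to 6.57 FPKM and SMARCA4 at 49.4 to 103 FPKM marked the lower and upper ends. SMARCA4 had the highest level per length of the 10 in every library, SMARCA2 the ninth and ARID2 the lowest. The order of the genes between them differed from library to library. SMARCB1 was the fourth of 10 without and the second with protodioscin in T24, and the fifth without and the third with it in 5637. Where a pair of values is given for a line below, the first is from untreated and the second from treated cells.

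**Figure D1:**
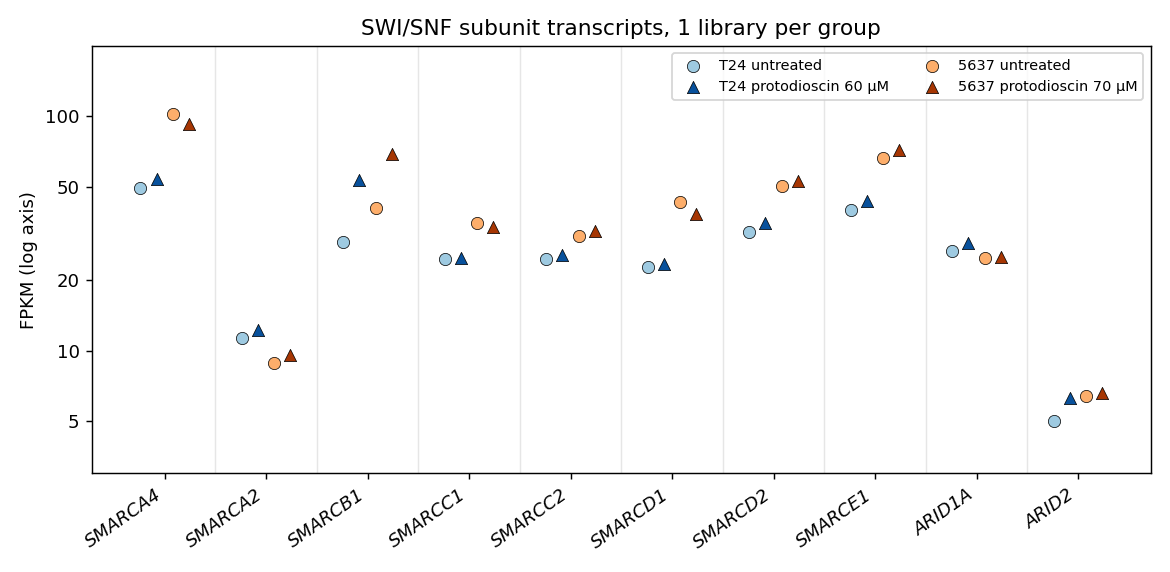
Levels of the 10 SWI/SNF subunit genes in FPKM (log axis) with 1 point per library, circles for untreated and triangles for treated cells. SMARCB1 is the gene whose treated points lie well above the untreated points of the same line (53.3 against 29.2 FPKM in T24, 69.3 against 40.9 FPKM in 5637).

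SMARCB1 (ENSG00000099956, chromosome 22, 23786931 to 23838008 on GRCh38, + strand) had 29.2 FPKM in untreated T24 and 53.3 FPKM in treated T24. In 5637 it was at 40.9 FPKM untreated and 69.3 FPKM treated. Both treated libraries therefore stood above both untreated libraries, and untreated 5637 lay between untreated and treated T24. The treated level was 1.83 times the untreated level in T24 and 1.70 times in 5637, which is a difference of 0.85 and 0.75 in log2(FPKM + 1). The counting error of these differences, estimated from what 1 read is worth and the median length of the coding transcripts, was 0.065 in T24 and 0.050 in 5637, which leaves out any variation between cultures. In bulk RNA a change in the level per cell and a change in the share of cells at a high level cannot be told apart.

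By size of the difference, SMARCB1 was the 39th of 12193 genes compared in T24 and the 43rd of 12635 in 5637. It was 1 of the 1.03% of genes higher by at least 0.5 in T24 and of the 1.01% in 5637, and of the 0.0963% (11 of 11417 genes) higher by at least 0.5 in both. None of the 10 genes reached a 2-fold difference (1 on the log2 scale) in either line, where 0.484% of genes in T24 and 0.388% in 5637 did so. Ranked by the smaller of its differences in both lines, SMARCB1 was the 7th of 11417 genes and the third of 9358 once genes with same-strand exon sharing were left out. These ranks follow from how the set was chosen and describe the size of the difference only.

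**Figure D2:**
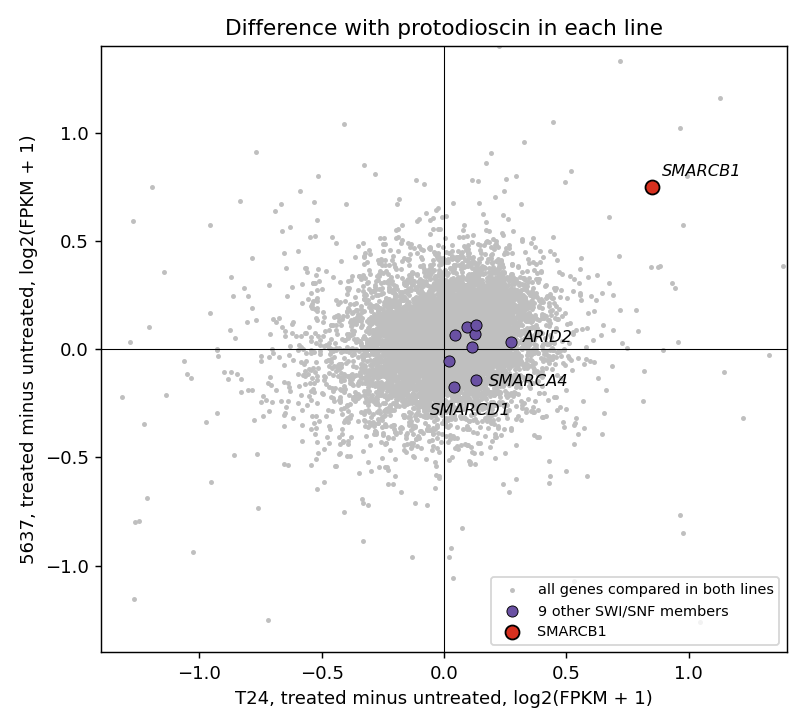
Difference of treated minus untreated cells in log2(FPKM + 1), T24 on the x axis and 5637 on the y axis, with 1 point per gene for 11417 genes compared in both lines. Of these, 30 lie outside the axes, and SMARCB1 at 0.85 and 0.75 stands apart from the other 9 subunit genes, whose values run from 0.021 to 0.27 in T24 and from -0.18 to 0.11 in 5637.

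The other 9 subunit genes did not share the size of the SMARCB1 difference. Their differences had a median of 0.11 in T24, with a range from 0.021 to 0.27, and a median of 0.031 in 5637, with a range from -0.18 to 0.11. All 9 were above 0 in T24, where 56.0% of all genes compared were above 0. In 5637, where 61.5% of all genes were above 0, the count was 6 of 9, and it was 4 of 9 with TPM, median-ratio or quantile scaling. The medians of all genes were 0.025 and 0.043. The largest of the 9 differences in T24 was that of ARID2 and the largest in 5637 that of SMARCE1.

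Across both lines, limma called none of the 9 for treatment, and their adjusted p ran from 0.559 upward. None of them had an unadjusted p below 0.05. Of all 12893 genes fitted, 0.0% were called (0 genes), and 1227 had an unadjusted p below 0.05. The 95% intervals of the 9 treatment coefficients lay between -0.26 and 0.41. These intervals do not show that the 9 genes were unaffected, since the fit had 1 residual degree of freedom. The widest reach was that of ARID2, at 0.15 with an interval from -0.10 to 0.41, and SMARCE1 had a coefficient of 0.12 with an interval from -0.025 to 0.27 (limma adjusted p = 0.648 and 0.559).

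Relative to its partners, SMARCB1 transcript was more abundant in the treated library of each line. The ratio of SMARCB1 to the geometric mean of the other 9 was 1.31 in untreated and 2.21 in treated T24, and 1.34 in untreated and 2.27 in treated 5637. The untreated ratios lay close together in the 2 lines, as did the treated ratios, and the treated ratio was 1.69 times the untreated ratio in both. To SMARCC1, a scaffold subunit, the ratio was 1.19 and 2.14 in T24 and 1.16 and 2.05 in 5637. To SMARCC2, the other scaffold subunit, it was 1.18 and 2.09 in T24 and 1.32 and 2.14 in 5637. SMARCE1, an HMG-box DNA-binding subunit, exceeded SMARCB1 in both untreated libraries: SMARCB1 was at 0.734 of its level in untreated T24 and 0.612 in untreated 5637. With protodioscin the ratio was 1.22 in T24 and 0.961 in 5637. All of these ratios carry the SMARCB1 difference that the set was chosen for.

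**Figure D3:**
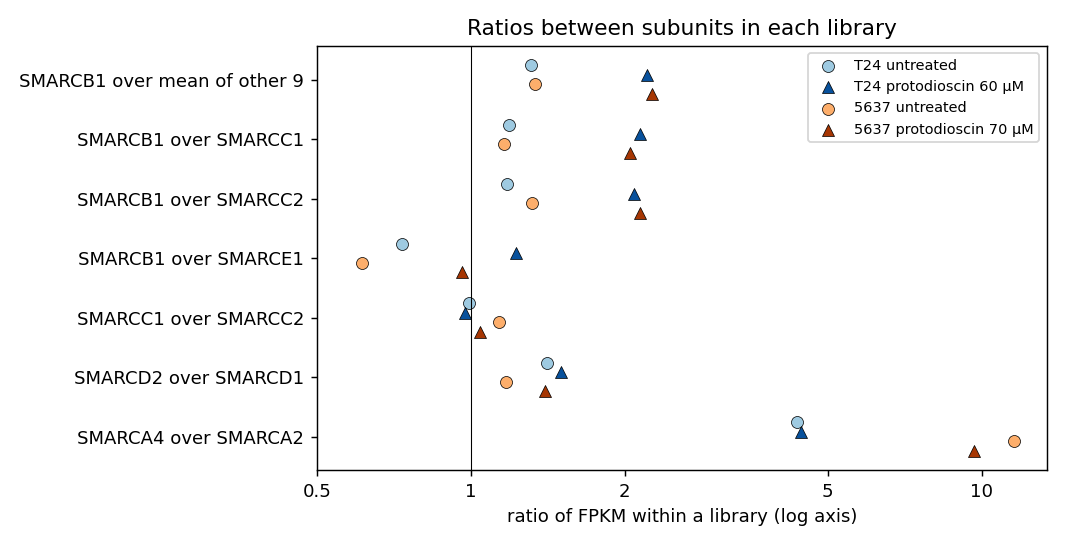
Ratios of FPKM between subunit genes within each library (log axis), circles for untreated and triangles for treated cells. The upper 4 rows, with SMARCB1 as the numerator, separate treated from untreated cells (1.31 to 2.21 in T24 and 1.34 to 2.27 in 5637 over the mean of the other 9), while SMARCA4 over SMARCA2 separates the lines (4.35 and 4.44 in T24, 11.6 and 9.69 in 5637).

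The largest difference between the lines among the 10 genes was that of the ATPase SMARCA4, which was higher in 5637, while the alternative ATPase SMARCA2 was lower there. SMARCA4 was at 49.4 and 54.2 FPKM in T24 against 103 and 93.0 FPKM in 5637, so both 5637 libraries lay above both T24 libraries. Its coefficient for 5637 minus T24 was 0.91 on the log2 scale (SE 0.081, 95% interval 0.71 to 1.10, limma adjusted p = 0.000175). The line effect was not the basis on which the genes were chosen, though for SMARCB1 the error of the fit draws on the treatment differences that were. limma called 68.9% of all 12893 genes for the line effect, so a called gene is common here. SMARCA2 was at 11.4 and 12.2 FPKM in T24 against 8.88 and 9.60 FPKM in 5637, and its coefficient was -0.32 (SE 0.080, 95% interval -0.51 to -0.13, limma adjusted p = 0.0125). The ratio of SMARCA4 to SMARCA2 was 4.35 and 4.44 in T24, against 11.6 and 9.69 in 5637. With protodioscin SMARCA4 differed by 0.13 in T24 and by -0.14 in 5637, and SMARCA2 by 0.096 and 0.10.

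Of the 10 genes, 7 were called higher in 5637, against 33.9% of all genes, and 1 was called lower, against 35.1%. Both 5637 libraries lay above both T24 libraries for 7 genes and below them for 2, where 40.9% and 42.4% of all genes did so. SMARCB1, with a line coefficient of 0.42, was the gene called higher whose libraries overlapped between the lines. Its SE and p in the main fit rest in part on the gap between its treatment differences, the values it was chosen on. They are therefore left out, and its call is not a test apart from that choice. Its call was lost in a fit without a term for treatment (limma adjusted p = 0.285). The median line coefficient of the 10 genes was 0.44 and that of all genes -0.014. For each of the 10, the sign of the line difference was the same among untreated as among treated cells.

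**Figure D4:**
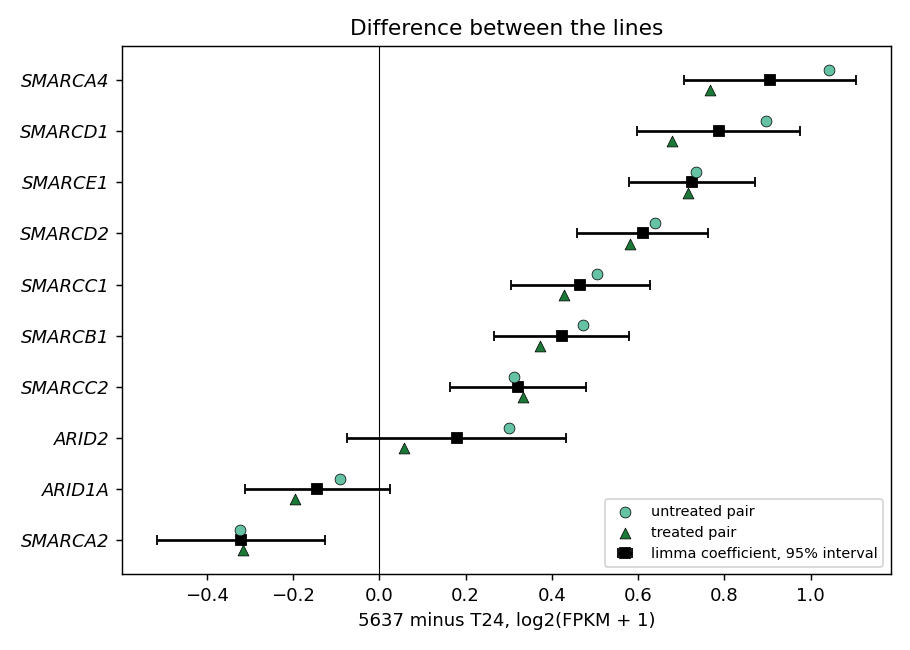
Difference of 5637 minus T24 in log2(FPKM + 1) for each subunit gene, as the limma coefficient with its 95% interval and the values among untreated and among treated cells. The interval of SMARCB1 rests in part on the treatment differences it was chosen on. SMARCA4 at 0.91, SMARCD1 at 0.79 and SMARCE1 at 0.73 are the furthest above 0, and SMARCA2 at -0.32 is the furthest below.

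The scaffold genes were higher in 5637 by smaller amounts. SMARCC1 was at 24.5 and 24.9 FPKM in T24 against 35.2 and 33.8 FPKM in 5637, a line coefficient of 0.47 (95% interval 0.30 to 0.63, limma adjusted p = 0.00118). SMARCC2 was at 24.7 and 25.5 FPKM in T24 against 31.0 and 32.4 FPKM in 5637, with a coefficient of 0.32 (95% interval 0.16 to 0.48, limma adjusted p = 0.00521). Their ratio stayed near 1 in each library, from 0.975 to 1.14. The treatment differences were 0.021 and -0.057 for SMARCC1 and 0.044 and 0.064 for SMARCC2 in T24 and 5637. Exons of SMARCC2 overlap those of MYL6, a myosin light chain gene on the opposite strand that was at 374 to 480 FPKM, over 514 bases, and reads there cannot be assigned by strand.

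SMARCD1 and SMARCD2 encode alternative subunits that link the complex to transcription factors. SMARCD1 was at 22.8 and 23.5 FPKM in T24 against 43.2 and 38.2 FPKM in 5637, with a line coefficient of 0.79 (95% interval 0.60 to 0.98, limma adjusted p = 0.00026). SMARCD2 was at 32.2 and 35.3 FPKM in T24 against 50.6 and 53.2 FPKM in 5637, with a coefficient of 0.61 (95% interval 0.46 to 0.76, limma adjusted p = 0.000299). SMARCD2 was the more abundant of the pair in every library, at 1.17 to 1.50 times SMARCD1. With protodioscin, SMARCD1 differed by 0.042 in T24 and -0.18 in 5637, the lowest value among the 10 genes, and SMARCD2 by 0.13 and 0.071.

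SMARCE1 was at 39.7 and 43.6 FPKM in T24 against 66.7 and 72.2 FPKM in 5637, with a line coefficient of 0.73 (SE 0.060, 95% interval 0.58 to 0.87, limma adjusted p = 0.000126). Its treatment differences were 0.13 in T24 and 0.11 in 5637. On the same strand SMARCE1 shares 19.8% of its exon bases with AC073508.2, an annotated protein-coding gene at 0.564 to 1.80 FPKM, so reads may be divided between them. The antisense gene AC073508.3, opposite SMARCE1 over 565 bases, was at 1.14 and 3.21 FPKM in T24 against 2.61 and 4.37 FPKM in 5637. It was higher in both treated libraries than in the untreated library of the same line.

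The ARID genes differed least between the lines. ARID1A was at 26.5 and 28.8 FPKM in T24 against 24.9 and 25.0 FPKM in 5637, and its coefficient of -0.14 did not pass the test (95% interval -0.31 to 0.025, limma adjusted p = 0.108). With TPM scaling it did, at -0.23 (limma adjusted p = 0.0405). ARID2 was at 5.02 and 6.27 FPKM in T24 against 6.41 and 6.57 FPKM in 5637, with a coefficient of 0.18 that did not pass the test (95% interval -0.074 to 0.43, limma adjusted p = 0.167). Both 5637 libraries lay below both T24 libraries for ARID1A and above them for ARID2. ARID1A was 3.80 to 5.29 times as abundant as ARID2. With protodioscin, ARID1A differed by 0.11 in T24 and 0.0079 in 5637, and ARID2 by 0.27 and 0.031, and the 5637 values of both were below 0 with TPM, median-ratio or quantile scaling.

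The exons of SMARCB1 overlap those of DERL3, a gene on the opposite strand that encodes a protein of endoplasmic reticulum degradation, over 2923 bases, or 17.7% of the exon bases of SMARCB1. DERL3 itself was at 0.709 and 0.944 FPKM in T24 against 0.0653 and 0.0257 FPKM in 5637, below SMARCB1 in every library, and the libraries do not mark strand. Of the 21 annotated SMARCB1 transcripts, 4 overlap DERL3, 3 of them coding, and the 2923 bases lie in 1 coding transcript of 5210 bases, the longest. Values for single transcripts were not analysed here, and gene-level FPKM depends on how reads were divided among transcripts of different length.

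Genes near SMARCB1 did not show a difference of its size in both lines. Within 250 kb, 12 other genes reached 1 FPKM in at least 1 library, and their differences ran from -0.17 to 1.16 in T24 and from -0.20 to 0.12 in 5637. Without genes with same-strand exon sharing there were 7, from -0.044 to 0.19 in T24 and from -0.19 to 0.049 in 5637. CHCHD10, the nearest on the side of the start, was at 6.25 and 6.03 FPKM in T24 against 4.60 and 3.92 FPKM in 5637. SLC2A11, a glucose transporter gene beyond its end, was at 4.58 and 4.84 FPKM against 1.69 and 1.90 FPKM. MIF, a cytokine gene, was at 457 and 511 FPKM against 454 and 429 FPKM. The value of 1.16 belongs to AC253536.7, at 1.18 and 3.88 FPKM in T24 and 0 in both 5637 libraries, which shares exons with DDT, at 29.7 and 26.2 FPKM in T24.

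**Figure D5:**
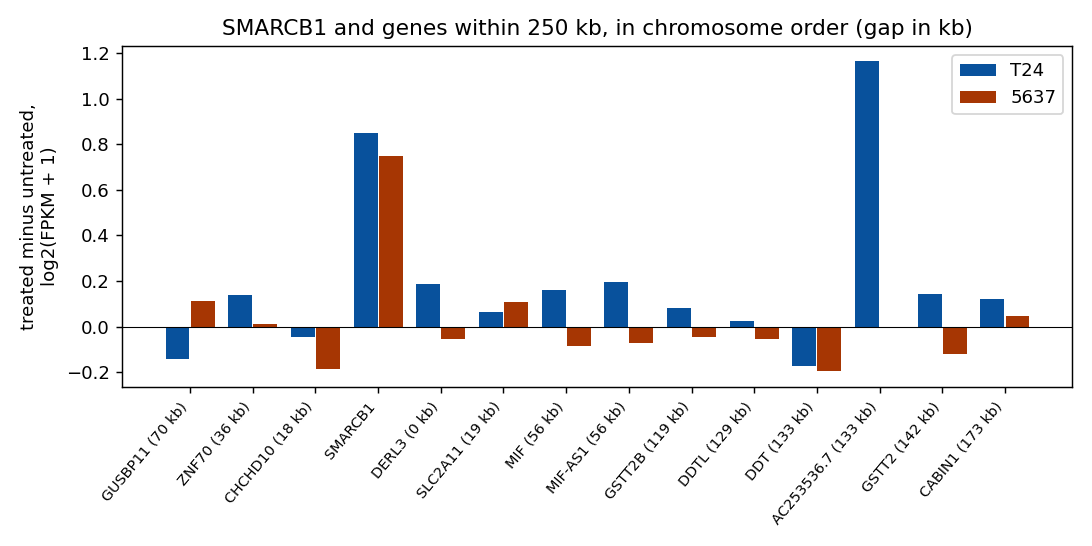
Difference of treated minus untreated cells in log2(FPKM + 1) for SMARCB1, the overlapping DERL3 and the 12 other genes at 1 FPKM or more within 250 kb, in chromosome order, with 1 bar per line. SMARCB1 is the gene high in both lines (0.85 and 0.75), and AC253536.7 has a difference of 1.16 in T24 and was listed at 0 in both 5637 libraries.

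The genes whose 4 values most resembled those of SMARCB1 were ZDHHC3, ARRDC3, RAP1A, SKP1 and BNIP3L, by Euclidean distance of mean-centred log2(FPKM + 1) among 7181 genes at 5 FPKM or more in all 4 libraries. With 4 libraries of 2 lines, such likeness describes these values only. ZDHHC3, a palmitoyltransferase gene, at a distance of 0.338, was at 5.86 and 12.2 FPKM in T24 against 10.8 and 13.3 FPKM in 5637. ARRDC3, an arrestin-family gene at a distance of 0.382, was at 6.88 and 10.4 FPKM against 9.85 and 12.6 FPKM. RAP1A, a small GTPase gene, BNIP3L, a mitophagy receptor gene, and SKP1, a ubiquitin ligase subunit gene that shares exons on the same strand, were at distances of 0.444 to 0.460. None of the other 9 subunit genes was among the 5, which says little, since any 9 of 7181 genes would seldom fall there.

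A further list held 19 annotated subunits of the BAF, PBAF and non-canonical forms, with 18 in the fit. It showed no gene at a difference of 0.5 in either line. In T24, 11 of 18 were above 0, with a median of 0.060, and in 5637, 14 of 17, with a median of 0.11. limma called none of them for treatment, and 1 had an unadjusted p below 0.05. Between the lines limma called 4 higher and 6 lower in 5637, beside 33.9% and 35.1% of all genes, with a median coefficient of -0.11 (-0.014 over all genes). DPF3, a histone-reading subunit, was at 3.85 and 3.43 FPKM in T24 against 0.428 and 0.388 FPKM in 5637 (-1.72, limma adjusted p = 4.3e-05). BCL7C was at 18.2 and 20.5 FPKM in T24 against 9.75 and 10.7 FPKM in 5637 (-0.86, limma adjusted p = 0.000154). PHF10, a PBAF subunit, went the other way, at 7.88 and 8.23 FPKM in T24 and 13.9 and 16.6 FPKM in 5637 (0.84, limma adjusted p = 0.000316). ACTL6B, the neuronal actin-like subunit, was listed at 0 in all 4 libraries.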

How the data were processed

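Messenger RNA was measured in 4 libraries, 1 per line and treatment. Libraries were made with a TruSeq v2 kit that does not mark strand and read as 150-base pairs on a HiSeq2500, per the labels' protocols. The authors deposited gene-level FPKM, and the submitters' processing notes list Trimmomatic, HISAT2, StringTie and GRCh38, with versions and settings not given in the sources used here. This unit does not correct for a few abundant transcripts, and reads of overlapping genes are divided by estimate. Read totals were not used here.

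Values were analysed as log2(FPKM + 1), which understates changes of low genes, in Python 3.11.15 with pandas 2.3.3. Line and treatment effects were fitted with limma 3.58.1 (R 4.3.3, trended prior) over all 4 libraries, with line and treatment as terms, for 12893 genes reaching 1 FPKM in 2 or more libraries. Calls used a Benjamini-Hochberg adjusted p below 0.05, two-sided. The 1 residual degree of freedom is the gap between the treatment differences of both lines, and whether the cultures were independent is not given, so the p-values reflect the spread of these 4 libraries alone. Within a line no test was possible, and genes entered at 1 FPKM in either library. The limma fit was also run on simulated data drawn from its own noise model, which cannot check the effect of having no replicates. Coordinates, transcripts and overlaps are from GENCODE 29 (bedtools 2.31.1), promoters from RefSeq GRCh38.p14.

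The 10 genes and all lists were chosen with earlier results of these data known. The text names all 10, up to 3 genes per list with the largest line effect or treatment difference, exon-overlapping genes, the nearest neighbours of SMARCB1 and the 5 most similar genes. Also named are cell type markers and the AP-1 and TEAD genes that were lower with treatment in both lines. Alternatives were other pseudocounts, filters and scalings, removal of genes with same-strand exon sharing, limma without a trended prior, and fits with no term for treatment or none for cell line.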

Additional observations from a re-analysis of the deposited data

Results flagged for a closer look

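For 3 subunit genes, the difference with protodioscin had opposite signs in the 2 lines, with 1 library per group and no test of the difference. The share of all genes with opposite signs was not counted, so whether 3 of 10 is unusual cannot be said. Of all genes compared, 56.0% were above 0 in T24 and 61.5% in 5637. ARID1A and ARID2 also had opposite signs with TPM, median-ratio or quantile scaling. SMARCA4 was higher in treated T24 (0.13) and lower in treated 5637 (-0.14), so 5637 minus T24 was -0.27. SMARCD1 was at 0.042 and -0.18, a gap of -0.22. Its T24 value was below its estimated counting error of 0.0725, and was 0.022 with median-ratio scaling. SMARCC1 was at 0.021 and -0.057, a gap of -0.077. Its T24 value was below its estimated counting error of 0.034, and was 0.00068 with median-ratio scaling.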

How the results depend on the processing

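Over the alternatives run, SMARCB1 differed by 0.77 to 0.88 in T24 and by 0.69 to 0.76 in 5637, and the lowest T24 value, 0.77, came with a pseudocount of 5. No called value of a subunit gene changed direction; the small 5637 treatment differences of ARID1A and ARID2 were below 0 with TPM, median-ratio and quantile scaling (-0.053 to -0.0066). Of 98 line effects recomputed for the subunits, 96 kept their side of the threshold; SMARCB1 did not without a term for treatment (0.42, limma adjusted p = 0.285), nor ARID1A with TPM scaling (-0.23, limma adjusted p = 0.0405). Of 156 treatment differences, 2 moved by more than the fitted spread: that of SMARCB1 above, and SMARCE1 in 5637, at 0.049 with median-ratio scaling. Genes called for the line effect numbered 6437 to 10016 against 8886. limma called 2 genes for treatment, against 0, with a pseudocount of 0.1 and also with same-strand exon sharing removed. The 2-fold count, 59 in T24 and 49 in 5637, became 156 and 121 with a pseudocount of 0.1, 17 and 10 with a pseudocount of 5, 34 and 17 with a filter at 5 FPKM, 246 and 196 with TPM scaling, and 15 and 16 without exon-sharing genes. Removing genes can only lower such counts. Most genes at 2-fold in each line shared exons on the same strand, while 9358 of the 11417 genes compared in both lines did not. For the other settings the cause was not tested. No paired analysis was possible because the 1 library per group gives no replicate numbers to pair by; the cell line, which each untreated and treated library share, was already a term of the limma fit, and without it limma also called 0 genes for treatment. No library was left out, since each is the whole of its group. SMARCA4 and SMARCE1 share exons on the same strand and have no value with such genes removed. Depth is known only relatively, and estimated counting error was largest for SMARCA2 (0.14 and 0.15 on the log2 scale). That estimate depends on the length assumed, the median of the coding transcripts, which for SMARCA2 was 801 bases although its longest transcript has 7061 bases.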

Other observations

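Among 22 genes of the ISWI, CHD and INO80 remodellers, limma called 4 higher and 9 lower in 5637, where 33.9% and 35.1% of all genes were called, so a line effect was no more frequent in the list than among all genes (68.9% in either direction). None reached a treatment difference of 0.5, a size by which 1.03% of all genes were higher in T24 and 1.01% in 5637. The helicase gene CHD7 was at 1.28 and 1.26 FPKM in T24 against 8.71 and 8.49 FPKM in 5637 (2.08 on the log2 scale). SRCAP, which exchanges histone H2A variants, was at 29.9 and 34.7 FPKM in T24 against 14.2 and 10.9 FPKM in 5637 (-1.30).

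Polycomb genes, whose products oppose SWI/SNF at many promoters, were called higher in 5637 for 9 of 17 and lower for 4, beside the same 33.9% and 35.1% of all genes. CBX2, a subunit that reads methylated histone H3, was at 4.21 and 4.71 FPKM in T24 against 24.7 and 24.8 FPKM in 5637 (2.24). JARID2 was at 4.31 and 4.81 FPKM against 13.9 and 12.6 FPKM (1.36). PHF19 was lower, at 52.0 and 38.4 FPKM in T24 against 20.2 and 20.2 FPKM in 5637 (-1.11). Among 11 AP-1 and TEAD genes, which bind enhancers that SWI/SNF opens, 7 were above 0 with treatment in T24 and 5 in 5637, beside 56.0% and 61.5% of all genes. ATF3, a stress-induced transcription factor, had treatment differences of 0.50 in T24 and 0.77 in 5637, FOS of 0.60 and 0.24, and JUND of 0.47 and 0.24. FOS was low, at 1.57 and 2.89 FPKM in T24 and 1.75 and 2.25 FPKM in 5637. ATF3 was at 6.81 and 10.0 FPKM in T24 and also low in 5637, at 1.81 and 3.80 FPKM. FOSL1, FOSL2 and TEAD4 were lower in both treated libraries. FOSL1, at 254 and 189 FPKM in T24 and 404 and 366 FPKM in 5637, had differences of -0.42 and -0.14. limma called none of the remodeller, polycomb, AP-1 and TEAD genes for treatment. At an unadjusted p below 0.05 there were 5 of the 11 AP-1 and TEAD genes, 1 of the 17 polycomb genes and 0 of the 22 remodellers, beside 1227 of all 12893 genes.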
